A study of Mus musculus with 6 samples.

Results

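Mitochondrial ribosomal protein genes were taken as all genes whose array symbol begins with Mrpl or Mrps followed by a number. This gave 132 of 45281 probes and 76 of 19057 genes, with 48 named Mrpl, for the large subunit, and 28 named Mrps, for the small one. Mrps18a and Mrps30 keep an Mrps name but belong to the large subunit, and are counted there in the classes below. RNA came from GFP+ cells with CD4 and CD8, sorted from the bone marrow of male mice that carried T cell acute lymphoblastic leukemia (T-ALL) induced by NOTCH1, 4 weeks after transplantation. The 6 Illumina bead arrays, each hybridised with biotin-labelled total RNA, form 2 groups, 3 labelled Klf4-deficient (knock out) and 3 labelled control (wild type). The sources used here give no strain, age or allele, and not how Klf4 was deleted. The labels also do not say that the samples of a group came from separate animals, so p-values measure only the spread between these samples, which may be technical.

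Mitochondria carry ribosomes of their own, which make the small set of oxidative phosphorylation proteins encoded in mitochondrial DNA. The ribosomal RNAs of these ribosomes come from mitochondrial DNA, while all of their proteins are encoded in the nucleus, made in the cytosol and imported. Some of the proteins have a bacterial counterpart and others are found only in mitochondrial ribosomes. Dividing cells need them to keep up mitochondrial protein synthesis as their mitochondria multiply.

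The Klf4 probe went against the labels. Its normalized log2 intensity was 6.62, 5.93 and 6.78 in arrays labelled Klf4-deficient 1, 2 and 3, against 5.85, 5.09 and 5.30 in control arrays 1, 2 and 3. The groups did not overlap, and the log2 difference was 1.03 ± 0.33 (SE; limma, adjusted p = 0.571). The signal was near the background limit. Its mean was 70.7 in Klf4-deficient and 29.0 in control arrays, and the probe passed on 3 of 3 and 2 of 3 arrays. It is not known whether the probe lies inside or outside what was deleted, so it does not check the deletion. "Klf4-deficient" below is the label, and every direction is drawn from it. Mean probe signal lay between 359 and 445, lowest in Klf4-deficient array 3. Markers of T cells were above background on all arrays for 10 of the 11 measured, Cd8b1, Cd4, Rag1 and Ptcra among them, and the Cd8a probe passed on 1 of 3 Klf4-deficient and 3 of 3 control arrays.

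Promoters of these genes often hold motifs of the regulators of nuclear-encoded mitochondrial genes. The windows of the 4 members with the smallest unadjusted p, by each gene's brightest probe, are shown with those motifs in place. The RefSeq windows (mouse build GRCm38.p6) run from 250 bases before to 50 after the start, on the gene's strand. They are chr11:97041332-97041631 (+) for Mrpl10, chr11:115603890-115604189 (+) for Mrps7, chr17:35916391-35916690 (-) for Mrps18b and chr11:120484387-120484686 (+) for Mrpl12. Capitals mark matches on either strand to the ETS and GABPA core CCGGAAG, the NRF1 core TGCGCA, the YY1 motif AAGATGG, the MYC E box CACGTG, the Sp and Klf GC box GGGCGG or the Klf CACC box CACCC.
Mrpl10: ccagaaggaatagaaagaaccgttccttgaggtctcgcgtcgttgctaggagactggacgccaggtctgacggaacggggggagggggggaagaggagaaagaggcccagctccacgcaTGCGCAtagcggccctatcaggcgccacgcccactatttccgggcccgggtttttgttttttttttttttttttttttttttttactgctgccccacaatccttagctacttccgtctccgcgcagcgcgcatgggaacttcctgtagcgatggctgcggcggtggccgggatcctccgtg
Mrps7: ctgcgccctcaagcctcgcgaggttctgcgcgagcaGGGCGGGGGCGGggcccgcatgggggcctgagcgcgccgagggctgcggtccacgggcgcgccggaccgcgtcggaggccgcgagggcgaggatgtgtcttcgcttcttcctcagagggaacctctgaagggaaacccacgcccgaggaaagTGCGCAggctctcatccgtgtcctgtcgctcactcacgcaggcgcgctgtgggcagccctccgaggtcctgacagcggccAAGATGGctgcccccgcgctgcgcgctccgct
Mrps18b: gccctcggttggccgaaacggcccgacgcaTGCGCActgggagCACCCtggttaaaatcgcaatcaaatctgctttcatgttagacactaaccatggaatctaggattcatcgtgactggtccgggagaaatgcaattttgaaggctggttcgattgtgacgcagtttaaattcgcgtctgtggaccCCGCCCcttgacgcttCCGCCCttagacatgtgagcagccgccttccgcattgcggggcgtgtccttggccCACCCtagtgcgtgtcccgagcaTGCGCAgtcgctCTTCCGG
Mrpl12: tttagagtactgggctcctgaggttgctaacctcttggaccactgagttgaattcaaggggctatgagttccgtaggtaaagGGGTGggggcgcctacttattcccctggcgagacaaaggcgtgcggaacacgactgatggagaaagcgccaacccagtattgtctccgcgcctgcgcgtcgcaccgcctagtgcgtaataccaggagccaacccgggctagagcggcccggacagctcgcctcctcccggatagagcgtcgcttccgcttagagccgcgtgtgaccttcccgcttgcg
Mrps18b held 7 matches, Mrps7 held 4, and Mrpl10 and Mrpl12 held 1 each. In Mrps7, 2 GC boxes stood side by side, and no printed matches overlapped.

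No member passed the test between the groups. Of the 76 genes, 0 were called by limma at an adjusted p under 0.05 (0.0105% of all genes were called), and the smallest adjusted p was 0.426. At an unadjusted p under 0.05, 3 members were higher in the Klf4-deficient arrays, 3.95% of members against 3.51% of all genes. A further 3 were lower, again 3.95% against 4.09% of all genes. When genes above the background limit were fitted alone, 3 of 71 members were higher (4.23%, against 4.85%) and 1 lower (1.41%, against 5.32%). With no normalization between arrays, 1 was higher (1.32%, against 1.95% of all genes) and 2 lower (2.63%, against 4.17%). Without Klf4-deficient array 3, 8 were higher (10.5%, against 4.2%) and 2 lower (2.63%, against 3.67%), with 0 called. In 4 members (5.26%, against 5.48% of all genes) every Klf4-deficient array lay above every control array, and in 3 (3.95%, against 6.09%) every one lay below. Among genes above the background limit these shares were 5.63% and 4.23% of members, against 7.71% and 9.63% of all such genes. With no normalization 0 lay above (3.11% of all genes) and 5 below (6.58%, against 7.46%). Without Klf4-deficient array 3, when fewer arrays are compared, 12 lay above (15.8%, against 10.2%) and 4 below (5.26%, against 9.31%). With all 6 quantile normalized arrays, 1 probe a gene and no array weights, the members' shares are near or below the background. With every probe, 7 of 132 were higher at an unadjusted p under 0.05 (5.3%, against 2.76% of all probes) and 7 lower (5.3%, against 3.52%). By groups apart, 9 probes (6.82%, against 4.5%) lay above and 7 (5.3%, against 5.39%) below. With array weights, 6 members were higher at that p (7.89%, against 5.1% of all genes) and 3 lower (3.95%, against 4.89%). In bulk RNA, fewer cells of a type and less RNA per cell cannot be told apart, and with 3 arrays a group the precision of each value is limited by their number.

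The log2 differences, Klf4-deficient minus control, were small in either direction. Their median over the 76 members was -0.03, with quartiles at -0.07 and 0.05, against 0 over all genes and -0.01 over the 9208 genes above the background limit. By sign, 29 members were above 0, 46 below and 1 at 0. The median was -0.03 for Mrpl and -0.02 for Mrps genes. Over the classes it was -0.02 for the 16 small-subunit proteins with a bacterial counterpart and 0.01 for the 10 specific to mitochondria. It was -0.03 for the 29 conserved large-subunit proteins and -0.04 for the 20 mitochondria-specific ones. Mrpl58, a peptidyl-tRNA hydrolase built into the large subunit, stood outside the classes at -0.10 ± 0.12.

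**Figure D1:**
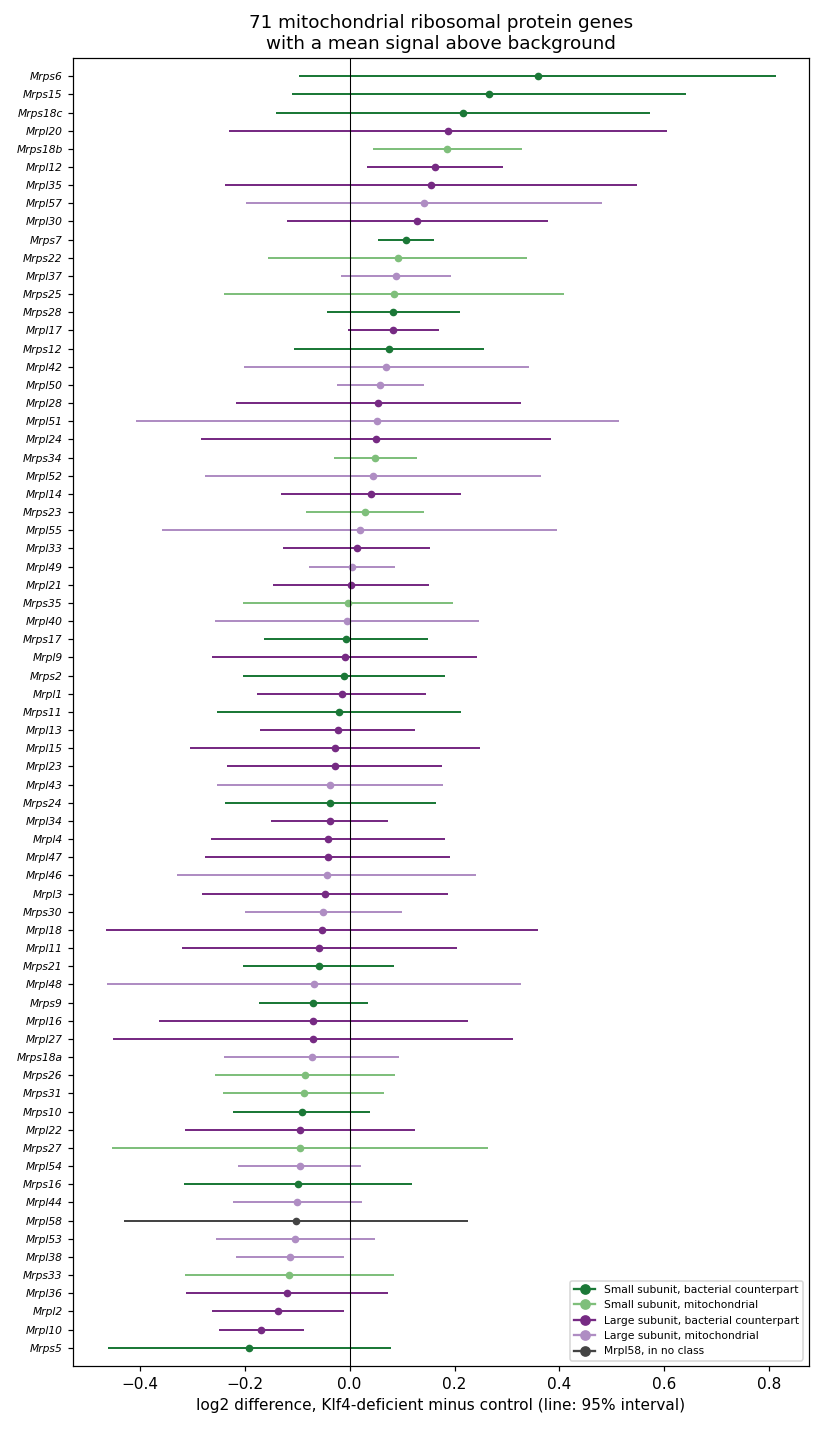
Log2 difference (Klf4-deficient minus control, x axis) with its 95% interval for the 71 members above the background limit, ordered by estimate and coloured by class. Estimates lie between -0.19 and 0.36, and most intervals cross 0.

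For the probe used, with quantile normalized arrays and the spread between these samples alone, the intervals bounded the size of a difference. Of the 71 members above the background limit, 65 had a 95% interval within 0.5 on the log2 scale of 0 (1.41-fold), 71 within 1 and 15 within 0.2. The estimate itself lay within 0.1 of 0 for 53. The median half-width was 0.20 (0.05 to 0.46). The median pooled SD between arrays of a group was 0.0995 for these members, against 0.145 for all genes above the limit. That comparison was not matched for signal. The 5 other members (Mrpl19, Mrpl32, Mrpl39, Mrpl45 and Mrps14) were above background on 0 of 6 arrays and get no fold.

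In the stalk base of the large subunit, where translation factors bind, 2 neighbouring proteins had estimates of opposite sign. Mrpl10, the stalk anchor, had the smallest unadjusted p of the members by the probe used for each gene. Its normalized log2 intensity was 11.73, 11.63 and 11.69 in Klf4-deficient arrays 1, 2 and 3, against 11.85, 11.83 and 11.87 in control arrays 1, 2 and 3. All Klf4-deficient arrays lay below all controls, with a log2 difference of -0.17 ± 0.03 (unadjusted p = 0.0031, limma adjusted p = 0.426), and a second probe gave -0.12. Mrpl12, the stalk protein that Mrpl10 holds, had 11.71, 11.55 and 11.57 in Klf4-deficient arrays against 11.44, 11.43 and 11.47 in control arrays. Here every Klf4-deficient array was higher, by 0.16 ± 0.05 (limma adjusted p = 0.547). With no normalization, where genes above the limit had a median of -0.11, Mrpl10 was at -0.27 and Mrpl12 at 0.06. No test between the genes was made.

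Other large-subunit members were close behind. Mrpl2, a conserved protein near the peptidyl transferase centre, had 9.93, 9.94 and 9.81 in Klf4-deficient arrays against 9.99, 10.08 and 10.03 in control arrays, a difference of -0.14 ± 0.05. Mrpl38, a mitochondria-specific protein of the central protuberance, had 10.75, 10.70 and 10.77 in Klf4-deficient arrays against 10.81, 10.92 and 10.84 in control arrays, a difference of -0.11 ± 0.04. In both genes every Klf4-deficient array lay below every control array, and without normalization Mrpl2 was at -0.24 and Mrpl38 at -0.22. Mrpl17 had 10.90, 10.95 and 10.86 in Klf4-deficient arrays against 10.79, 10.86 and 10.81 in control arrays, apart by a narrow margin, with a difference of 0.08 ± 0.03 that became -0.02 without normalization between arrays. Mrpl37 stood at 0.09 ± 0.04, Mrpl50 at 0.06 ± 0.03, Mrpl54 at -0.10 ± 0.04, Mrpl44 at -0.10 ± 0.05 and Mrpl53 at -0.10 ± 0.06, each with overlapping groups. Without that normalization Mrpl37 was at -0.02 and Mrpl50 at -0.06.

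In the small subunit, Mrps7, a protein of the subunit head, had the second smallest p by the probe used for each gene. It had 10.99, 10.99 and 10.96 in Klf4-deficient arrays against 10.89, 10.88 and 10.84 in control arrays. The groups were apart, with a difference of 0.11 ± 0.02 (limma adjusted p = 0.429), and a second probe gave 0.30. The value changed with the normalization and the probe. The mean deposited signal was 1941 in Klf4-deficient and 1929 in control arrays, and 637 against 554 for the second probe. Without normalization, where genes above the limit had a median of -0.11, the Mrps7 difference was 0.0019. It was 0.03 with arrays centred on their median and 0.20 with the gene's probes averaged. Mrps18b, 1 of 3 paralogs of bacterial S18, had 10.71, 10.59 and 10.72 in Klf4-deficient arrays against 10.41, 10.52 and 10.52 in control arrays. All Klf4-deficient arrays were higher, by 0.19 ± 0.05 (limma adjusted p = 0.540), but its other probes gave -0.13 and -0.02, and without normalization it was at 0.07. Of the 3 paralogs, the classes above count Mrps18c as having a bacterial counterpart, and Mrps18a and Mrps18b as specific to mitochondria. The paralogs Mrps18a and Mrps18c overlapped between groups. Mrps18a had 10.50, 10.42 and 10.37 in Klf4-deficient arrays against 10.43, 10.61 and 10.48 in control arrays (-0.07 ± 0.06). Mrps18c had 9.36, 9.65 and 9.73 in Klf4-deficient arrays against 9.18, 9.48 and 9.43 in control arrays (0.22 ± 0.14).

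Among members above the limit the estimate furthest from 0 was that of Mrps6, a conserved protein of the small subunit. Mrps6 had 10.01, 9.74 and 10.32 in Klf4-deficient arrays against 9.53, 9.82 and 9.64 in control arrays. Its difference of 0.36 ± 0.17 had a 95% interval of -0.09 to 0.81, with overlapping groups, and it was 0.21 without Klf4-deficient array 3. Mrps15, a conserved protein of the small subunit, had 6.47, 6.18 and 6.53 in Klf4-deficient arrays against 6.03, 6.09 and 6.26 in control arrays, a difference of 0.27 ± 0.14. Mrps5 had 8.91, 8.87 and 8.80 in Klf4-deficient arrays against 9.25, 8.89 and 9.01 in control arrays, a difference of -0.19 ± 0.10. Mrps15 overlapped between groups, and so did Mrps5, by the second control and the first Klf4-deficient array. Without the first control array Mrps5 was at -0.09. Mrps10 stood at -0.09 ± 0.05 and Mrps34, which is specific to mitochondria, at 0.05 ± 0.03, each with overlapping groups. Mrps12, a protein of the decoding centre, had 11.93, 11.95 and 11.88 in Klf4-deficient arrays against 11.71, 11.93 and 11.89 in control arrays, a difference of 0.08 ± 0.07. The first control array lay lowest, and without it the difference was 0.0071. Without normalization between arrays Mrps12 was at -0.03 and Mrps34 at -0.06.

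**Figure D2:**
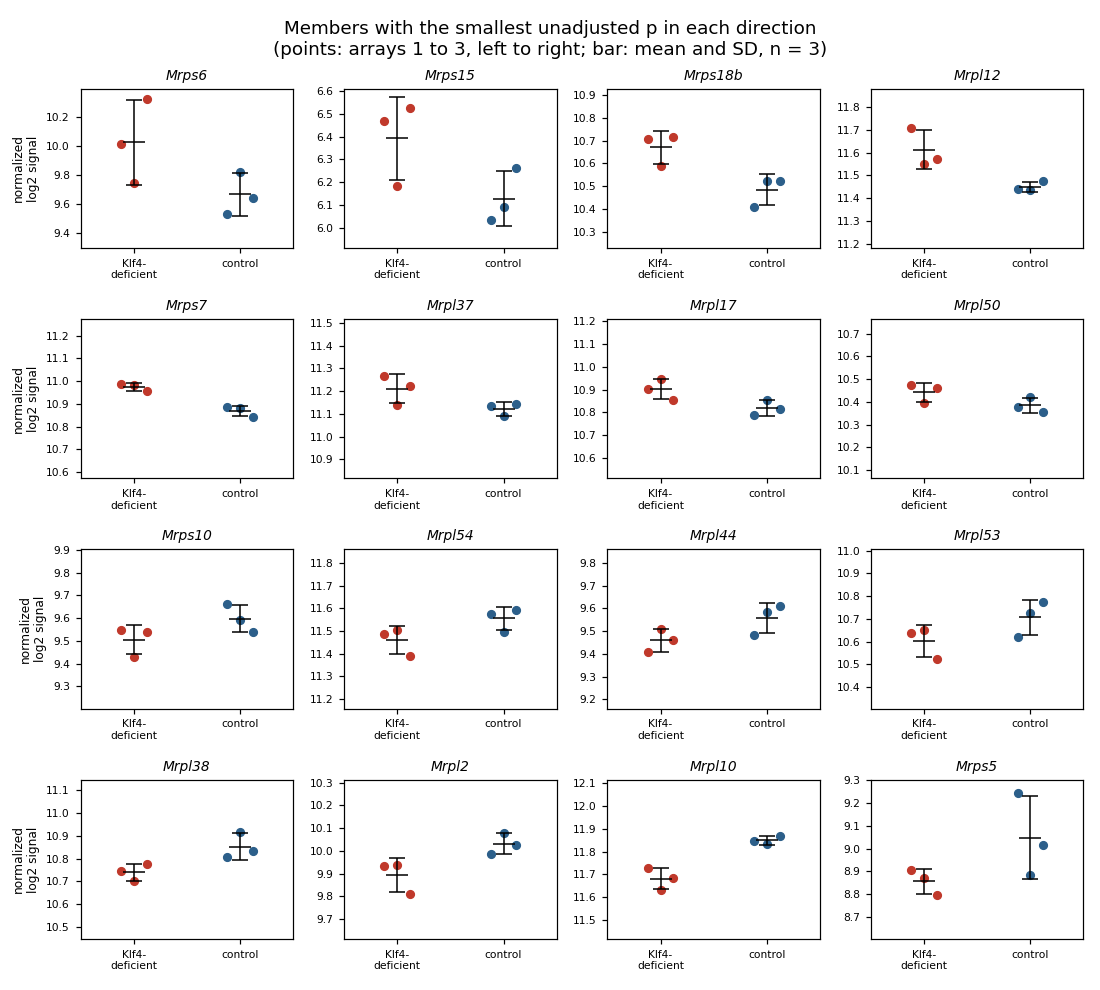
Normalized log2 intensity (y axis) of the 8 members with the smallest unadjusted p in each direction, with points for arrays and bars for mean and SD (n = 3), and Klf4-deficient arrays left of control arrays. Mrpl10, Mrpl38 and Mrpl2 lie lower and Mrps7, Mrps18b, Mrpl12 and Mrpl17 higher in all Klf4-deficient arrays than in any control array.

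Probes of the same gene could differ in sign or in size. Of the 23 members with several probes above the limit, 11 had log2 differences of opposite sign and 4 spanned over 0.3. An opposite sign need not be a wide gap. Mrpl49 ran from -0.01 to 0.04, a span of 0.05, and the probes of Mrpl10, equal in sign, also spanned 0.05. Mrpl3, with both values negative (-0.32 and -0.05), spanned 0.28. Mrpl15 ran from -0.29 to 0.33 over 6 probes, Mrps18b from -0.13 to 0.19, Mrps25 from -0.08 to 0.23 and Mrpl51 from -0.26 to 0.05. The remaining members with opposite signs were Mrpl13, Mrpl43, Mrpl48, Mrpl49, Mrps5, Mrps26 and Mrps31. Probes agreed closely for Mrps12 (0.08 and 0.08) and Mrpl37 (0.09 and 0.10). A second Mrpl9 probe, above background on 6 of 6 arrays, gave -0.16 (limma over all probes, unadjusted p = 0.00028, adjusted p = 0.287). That unadjusted p was smaller than the one of Mrpl10, while the Mrpl9 probe used gave -0.0096. The ranking of members by p thus depends on the probe chosen.

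**Figure D3:**
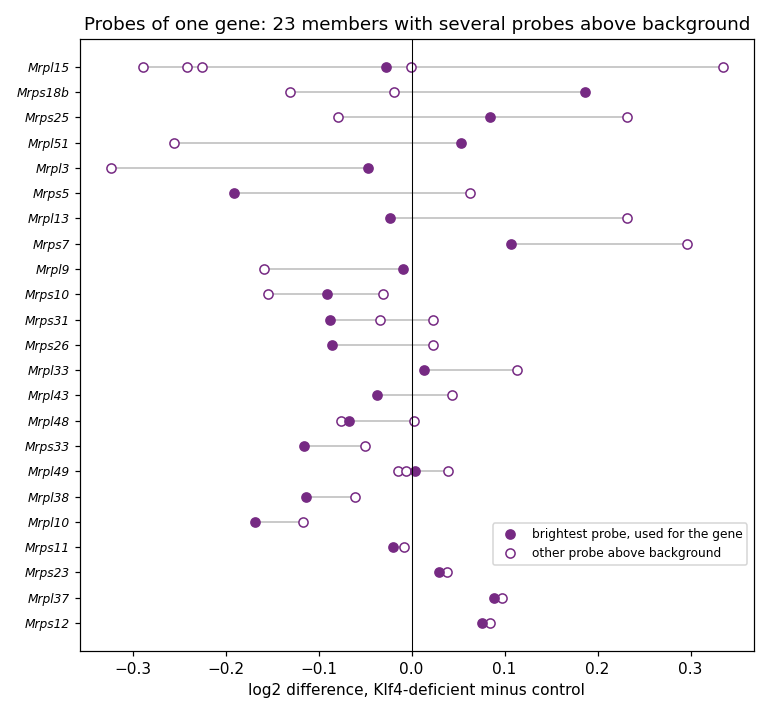
Log2 difference (x axis, Klf4-deficient minus control) of each probe above background in the 23 members with several. Filled points mark the probe used for the gene, and Mrpl15 has the widest span.

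Klf4-deficient array 3 stood low for these genes. The mean over members, relative to the control arrays, was 0.04, 0.02 and -0.07 on the log2 scale in Klf4-deficient arrays 1, 2 and 3, against -0.05, 0.03 and 0.02 in control arrays 1, 2 and 3. The summed deposited signal was 128532, 130431 and 98596 in Klf4-deficient arrays against 127034, 125623 and 132347 in control arrays. Among the Klf4-deficient arrays, array 3 was the lowest for 50 of 71 members (70.4%), against 43.5% of all genes above the limit. Without it the members' median difference was 0.03. Oxidative phosphorylation genes, whose mitochondrial partners these ribosomes make, followed the same order at 0.06, 0.04 and -0.14 in Klf4-deficient arrays, against -0.03, 0.02 and 0.01 in control arrays. Cytosolic ribosomal protein genes were at 0.06, -0.02 and -0.03 in Klf4-deficient arrays, against 0.02, -0.03 and 0.0021 in control arrays.

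Monocyte, erythroid and NK markers lay above the controls in all 3 Klf4-deficient arrays by their mean, most of all in array 3. By mean log2 position the monocyte and macrophage markers stood at 0.37, 0.82 and 1.37 in Klf4-deficient arrays 1, 2 and 3, against -0.03, -0.0059 and 0.04 in control arrays. Of these 12 markers, 8 (66.7%, against 5.48% of all genes) had every Klf4-deficient array above every control array, and 7 had an unadjusted p under 0.05. Erythroid markers stood at 0.29, 0.94 and 1.59 in Klf4-deficient arrays, against -0.32, 0.17 and 0.16 in control arrays, with 4 of 8 (50%) apart. NK and cytotoxic markers stood at 0.25, 0.53 and 0.77 in Klf4-deficient arrays, against -0.16, 0.12 and 0.04 in control arrays. Of these 9 markers, 4 (44.4%) were apart and higher, and by sign 5 were above 0 and 3 below. Neutrophil markers stood at -0.20, -0.04 and 1.17 in Klf4-deficient arrays, against -0.05, 0.30 and -0.25 in control arrays, so they were high in array 3 alone, with 0 of 12 apart. T cell markers stood at -0.14, -0.04 and -0.12 in Klf4-deficient arrays, against 0.02, -0.03 and 0.0094 in control arrays. No marker of these lists was called by limma. The 12 neutrophil markers measured of 12 summed to 68657 to 122416 in Klf4-deficient arrays against 68763 to 93589 in control arrays, and Mmp8 was not above background. The 8 erythroid markers of 12 summed to 42698 to 57151 in Klf4-deficient arrays against 35058 to 42552 in control arrays, with Epb42 not above background. The 12 monocyte and macrophage markers of 13 summed to 4690 to 11570 in Klf4-deficient arrays against 3853 to 5106 in control arrays, with Itgax not above background. The 9 NK and cytotoxic markers of 10 summed to 2652 to 3522 in Klf4-deficient arrays against 2131 to 3125 in control arrays, with Eomes, Gzmb and Ncr1 not above background. The part of these cells in the members' values was not tested.

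**Figure D4:**
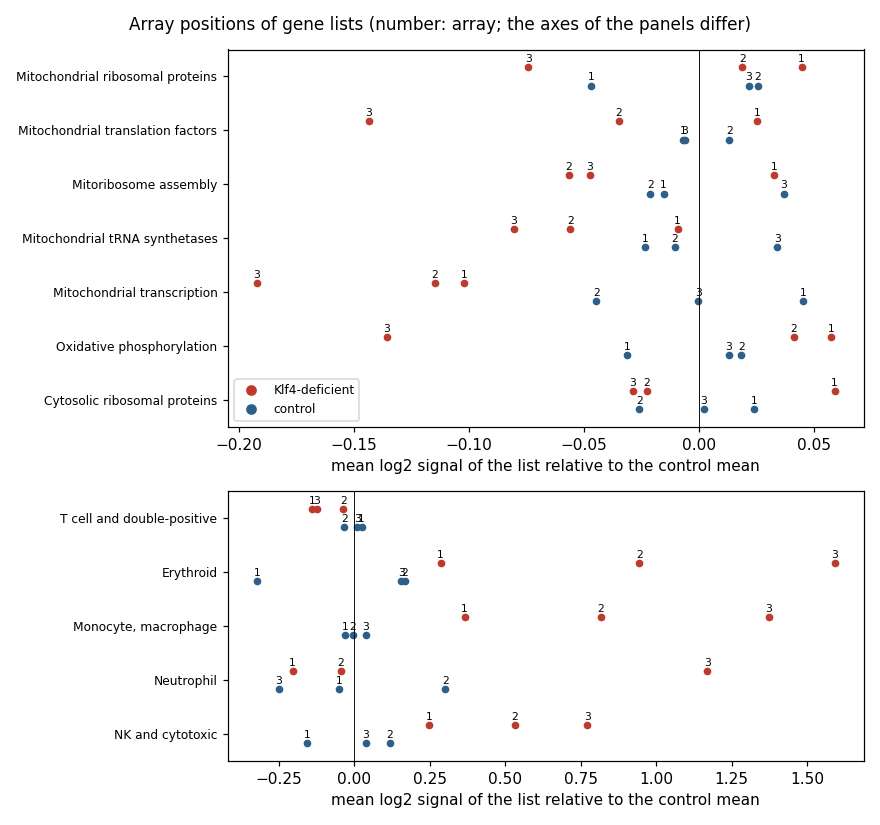
Mean log2 position (x axis) of each gene list in each array relative to the control mean, Klf4-deficient arrays above control arrays and numbered by array. Array 3 is lowest of its group for the members and highest for erythroid, monocyte, neutrophil and NK markers.

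Of the mitochondrial lists measured beside the members, the 5 mitochondrial transcription genes had the lowest median, -0.14, with all 5 estimates negative. At an unadjusted p under 0.05, 3 of the 5 (60%) were lower, against 4.09% of all genes, and none was called. The count was 1 with arrays centred on their median and 2 or 3 when 1 array was left out. Mterf1a, named as a transcription termination factor, had 9.66, 9.82 and 9.71 in Klf4-deficient arrays against 10.01, 9.999 and 10.03 in control arrays. That is a log2 difference of -0.28 ± 0.05 (limma adjusted p = 0.417), with the groups apart. Tefm, the elongation factor, stood at -0.14 ± 0.03 (limma adjusted p = 0.429) and Tfb2m, an initiation factor, at -0.22 ± 0.08 (0.600), again with every Klf4-deficient array below every control array. Polrmt, the polymerase, was at -0.04 and Tfam at -0.0010. These lists were chosen with earlier results known, and no list test was made. Among 15 translation factors (median -0.04), 1 was higher at an unadjusted p under 0.05 (6.67%, against 3.51% of all genes). A further 2 were lower (13.3%, against 4.09%), and either count fell to 0 under some settings. The release factor Mtrf1l stood at 0.38 ± 0.14, the elongation factor Gfm1 at -0.17 ± 0.06 and Guf1, a ribosome-binding GTPase, at -0.32 ± 0.09. Of 23 assembly factors measured of 25 (median -0.03), the same p was reached by 1 higher and 1 lower. That is 4.35% each, against 3.51% and 4.09% of all genes. Over other settings, 1 of which counts probes, these counts ran from 0 to 2 and 0 to 6. Mterf3 was higher at 0.24 ± 0.08 and Mettl17 lower at -0.17 ± 0.05, while Rpusd4 stood at 0.06. None of 16 mitochondrial tRNA synthetases measured of 17 had an unadjusted p under 0.05 (median -0.04). Up to 1 higher and 2 lower did under other settings, the probe count included. In 3 of them (18.75%, against 6.09% of all genes) every Klf4-deficient array lay below every control array, namely Iars2 (-0.26), Pars2 (-0.23) and Vars2 (-0.10), and Fars2 stood at -0.09. Among 4 mitoribosomal proteins with other names, Dap3 stood at -0.05 ± 0.08, Chchd1 at 0.03 and Gadd45gip1 at -0.16. Of 9 nuclear regulators, the coactivator Pprc1 stood at 0.27 ± 0.10, and Yy1 and Ppargc1a were under the background limit. Nrf1 was at -0.05, Gabpa at -0.02 and Myc at -0.02, each with overlapping groups.

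In the promoter windows, the shares of 3 motifs stood above those of both comparison sets. Windows were found for 67 of 76 members, 73 in all. The shares count windows and not genes, and 3 members (Mrpl2, Mrpl48 and Mrps16) had several. Those of Mrpl2 overlap and each hold the same E box. The ETS and GABPA core was in 35.6% of these, against 18.5% of windows of genes above the background limit and 8.86% of all 32851. The NRF1 core was in 30.1%, against 13.8% and 7.76%, and the YY1 motif in 17.8%, against 7.47% and 6.34%. At least 1 of the 3 was in 61.6%, against 34% and 20.4%. The GC box was in 52.1%, against 62.2% and 35.7%, the CACC box in 49.3%, against 62.8% and 57.5%, and the MYC E box in 9.59%, against 10.1% and 7.15%. Members above the limit with a GC box had a median log2 difference of -0.0046 (n = 31), against -0.04 without one (n = 32), and with a CACC box -0.03 (n = 31), against -0.0071 without one (n = 32). These are descriptions of letters in a window, base composition was not matched, and no test was made.

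**Figure D5:**
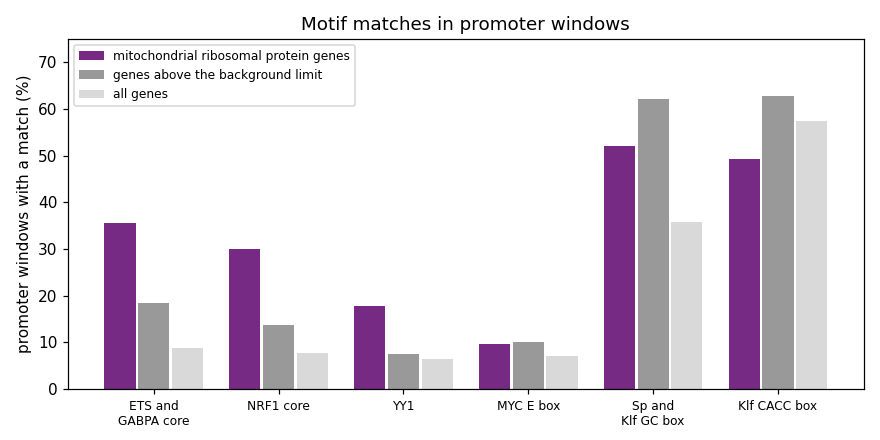
Percent of promoter windows (y axis) that hold each motif, for members, for genes above the background limit and for all windows. Members stand above both other sets for the ETS and GABPA core, the NRF1 core and the YY1 motif.

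Some windows are shared with a gene on the opposite strand. The window overlapped that of such a gene for 24 of 67 members (35.8%), against 19.3% of genes above the limit and 11.9% of all genes. Mrpl46 and Mrps11 have windows that overlap each other (-0.04 and -0.02). Partners named in pairs include Mrps12 with the mitochondrial synthetase Sars2 (0.08 and 0.02), Mrpl47 with the complex I gene Ndufb5 (-0.04 and 0.20), Mrpl2 with Klc4 (-0.14 and -0.12) and Mrps7 with Gga3 (0.11 and 0.03). No partner above the limit was called, and their smallest adjusted p was 0.743.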

How the data were processed

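Probe intensity on a linear scale, deposited by the authors for 6 arrays, came from BeadStudio per the submitters' processing notes (version not stated). Between 31.3% and 34.2% of an array's probes lie below 0. Values were floored at 0, raised by 16, put on a log2 scale and quantile normalized. Of 45281 probes, 34885 with 1 symbol were used, and 18 with several and 10378 with none were not. The brightest probe stood for each gene. The background limit was 3 times the SD of negative values mirrored around 0 (21.8 to 23.7). Differences came from limma 3.58.1 in R 4.3.3 (lmFit, eBayes with a trend), adjusted by Benjamini-Hochberg over 19057 genes at 0.05. The fit was run on simulated data with planted changes larger than any member estimate, so recovery at the members' sizes was not checked. Motifs were counted in Python 3.11.15.

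Members and lists were chosen with earlier results of these data known. Named were the 8 members above the limit with the smallest p per direction, 2 per class, Mrps12, Mrpl12, Mrps18a, Mrps18b, Mrps18c, Dap3, Klf4, members whose probes disagree, and up to 3 per other list. Polrmt, Tfam, Vars2, Nrf1, Gabpa, Myc, Mrpl3, Mrpl9, Mrpl58 and the promoter partners were chosen after their values were seen. Same-numbered arrays of the groups correlated at 0.19, -0.04 and -0.18 in their deviations from group means, so numbers were not taken as pairs. Alternatives were other normalizations, offsets, probe rules, moderation, array weights, a replicate block and leaving out each array.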

Additional observations from a re-analysis of the deposited data

How the results depend on the processing

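Members called stayed at 0 under all 13 other settings and all 6 fits that left out an array, and their smallest adjusted p ran from 0.265 to 0.775. The members' median log2 difference was -0.093 with arrays centred on their median and -0.12 with no normalization, where all genes above the limit had a median of -0.11. It ran from -0.052 to 0.034 leaving out 1 array, 0.034 without Klf4-deficient array 3. For Mrpl genes it was -0.099, -0.12 and -0.057 to 0.038, and for Mrps genes -0.085, -0.11 and -0.038 to 0.026, again highest without that array. Over the other settings that count genes, members at an unadjusted p under 0.05 numbered 1 to 6 higher and 0 to 3 lower. With array weights 6 were higher (7.89%, against 5.1% of all genes) and 3 lower (3.95%, against 4.89%). With arrays centred on their median 1 was higher (1.32%, against 2.85%) and 0 lower (2.73% of all genes). With every probe, 7 of 132 probes were higher (5.3%, against 2.76% of all probes) and 7 lower (5.3%, against 3.52%). Leaving out 1 array, higher numbered 8 (10.5%, against 4.2% of all genes in that fit) without Klf4-deficient array 3, 6 (7.89%, against 3.5%) without Klf4-deficient array 2 and 5 (6.58%, against 2.73%) without control array 2. Lower numbered 5 (6.58%, against 3.99%) without control array 1 and 1 (1.32%, against 3.55%) without control array 3. Over all genes, the 2 called higher became 1 with median centring, cyclic loess, every probe, no trend, an offset of 50 or robust moderation, 0 when a gene's probes were averaged, and 4 with no normalization or an offset of 1. They became 18, 13 and 21 without Klf4-deficient arrays 1, 2 and 3 and 1 without any control array. The 0 called lower became 1 with no normalization or an offset of 1, and ran from 0 to 8 leaving out an array, at 8, 2 and 8 without control arrays 1, 2 and 3 and 3 without Klf4-deficient array 1. With the replicate block, 0 genes were called higher and 0 members were called, and the samples share only a number.

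Signs turned for 11 of the 29 members named by the rule. With no normalization these were Mrpl17 (-0.021), Mrpl37 (-0.025), Mrpl49 (-0.097), Mrpl50 (-0.059), Mrpl51 (-0.00497), Mrps12 (-0.029) and Mrps34 (-0.063). With arrays centred they were Mrpl49 (-0.0717), Mrpl50 (-0.034), Mrps12 (-0.0040) and Mrps34 (-0.038). With array weights they were Mrpl13 (0.027), Mrpl43 (0.034) and Mrpl51 (-0.011), and with probes averaged Mrpl43 (0.0034). Leaving out an array gave -0.076 to 0.025 for Mrpl13, -0.12 to 0.055 for Mrpl15, -0.11 to 0.014 for Mrpl43, -0.18 to 0.086 for Mrpl48, -0.015 to 0.030 for Mrpl49 and -0.060 to 0.18 for Mrpl51. The cause was not tested.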
